A study of Mus musculus with 8 samples.

Results

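The genes described here are the solute carriers of a table of differentially expressed genes from mouse bone: every gene in the table whose symbol is Slc followed by a digit. There were 47 of them among 1994 genes, and GENCODE M21, an annotation of the mm10 genome, holds 371 protein-coding genes with such symbols. RNA was sequenced from the femoral shaft of 16-week-old mice, a piece of cortical bone from which the marrow had been washed out. FGFR1-CKO mice (genotype DMP1-CreER; Fgfr1f/f) carry loxP-flanked Fgfr1 alleles and a tamoxifen-activated Cre recombinase under a DMP1 promoter, a gene of osteocytes and late osteoblasts. Control mice (Fgfr1f/f) carry the same loxP-flanked alleles, and their genotype names no Cre, so Cre and the loss of Fgfr1 cannot be told apart as causes. Both groups ate tamoxifen chow (400 mg/kg) for 4 weeks from 12 weeks of age. Each group has 4 libraries, which the submitters picked from 6 Control samples by highest Fgfr1 and from 7 FGFR1-CKO samples by lowest Fgfr1. The submitters also limited the table to genes that differed between these same libraries. Every member therefore differs by choice, a carrier outside the table is called not listed, and nothing is said about its level.

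Solute carriers are membrane proteins that move ions, nutrients and metabolites across the cell surface or across the membranes of organelles, by facilitated diffusion, by cotransport with an ion or by exchange. In bone, osteoblasts and osteocytes take up phosphate, amino acids and sugars to build and mineralize matrix, and osteoclasts move acid and ions to dissolve it. Red cell precursors, which live in the marrow next to bone, use carriers to import iron and glycine into mitochondria for haem synthesis and to exchange chloride for bicarbonate at the red cell membrane.

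Fgfr1 itself ranged from 506 to 677 CPM (reads of a gene, scaled so that all reads of its library sum to the same total) in Control and from 275 to 346 CPM in FGFR1-CKO. The groups did not overlap (log2 fold change -0.90, standard error 0.10, limma adjusted p = 1.87e-05), in libraries chosen for this gene. An exact permutation test, two-sided, gave p = 0.0286, which is the lowest value possible with 4 libraries a group. Recovered totals lay between 9642436 and 11094287 reads a library, and between 27 and 18530 reads lay behind each value of a solute carrier. Scores of marker genes, each the mean log2(CPM + 1) of the markers listed, moved with genotype. All 18 erythroid markers listed, of 20 looked up, rose (score 7.00 to 7.42 in Control, 8.25 to 8.40 in FGFR1-CKO), as did all 9 neutrophil markers listed of 15 (8.35 to 8.66 against 9.21 to 9.45). All 15 osteoblast markers looked up were listed, and 14 fell (9.65 to 9.81 against 8.83 to 9.08). Of 11 osteocyte markers 8 were listed and 7 fell (7.07 to 7.31 against 6.35 to 6.46). Of 11 osteoclast markers 7 were listed and all 7 fell (6.14 to 7.25 against 5.27 to 5.87). Over all listed genes 36.6% rose and 38.4% fell. The score of B cell markers (3 listed of 11) was 0.87 higher in FGFR1-CKO. Those of endothelial (7 listed of 11, -0.52), pericyte and smooth muscle (5 of 7, -0.69) and adipocyte markers (3 of 7, -0.67) were lower. The macrophage genes Cd68 (-0.39) and Csf1r (-0.43), the 2 listed of 8 looked up, were lower and did not pass. No listed marker was at 0. No marker of T and NK cells, megakaryocytes or skeletal muscle was listed. These scores rest on genes listed for differing, and their part in the carrier results was not tested unless a value is given. In bulk bone, fewer cells of a type and less RNA per cell cannot be told apart.

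Of the 47 solute carriers, 20 rose in FGFR1-CKO bone, 17 fell and 10 did not pass, where passing meant a limma adjusted p under 0.05 over all listed genes and a log2 fold change beyond 0.5 in either direction. Over all 1994 listed genes 36.6% rose and 38.4% fell, so the shares among the carriers, 42.6% and 36.2%, lay near the background. The median log2 fold change was -0.40 over the carriers and -0.43 over all listed genes. All 10 that did not pass were lower, with log2 fold changes between -0.33 and -0.46, and missed the fold threshold only. That direction is not particular to carriers: over all listed genes the 729 higher ones all rose, and the 499 that did not pass were lower. At any fold change 20 carriers rose and 27 fell, against 36.6% and 62.9% of listed genes, of which 99.4% passed in either direction. A pseudocount of 5 in place of 1 left 18 that rose and 8 that fell, against 29.9% and 26.4% of listed genes. In 43 of the 47 the CPM of the 2 groups did not overlap, against 90.5% of all listed genes. After the libraries were rescaled by size factors, which moved the median log2 fold change of all genes by -0.11, 17 carriers rose and 24 fell, against 32.6% and 57.9% of all genes. No carrier changed direction in any of the alternatives. The authors' deposited table has 20 carriers higher and 27 lower, from 1.09 (Slc7a11) to -1.19 (Slc9b2) on the log2 scale, with Slc25a51 (0.50) and Slc27a3 (-0.50) closest to its threshold. The 10 that did not pass here run from -0.50 (Slc27a3) to -0.63 (Slc46a1) there, so these calls depend on the scale used.

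**Figure D1:**
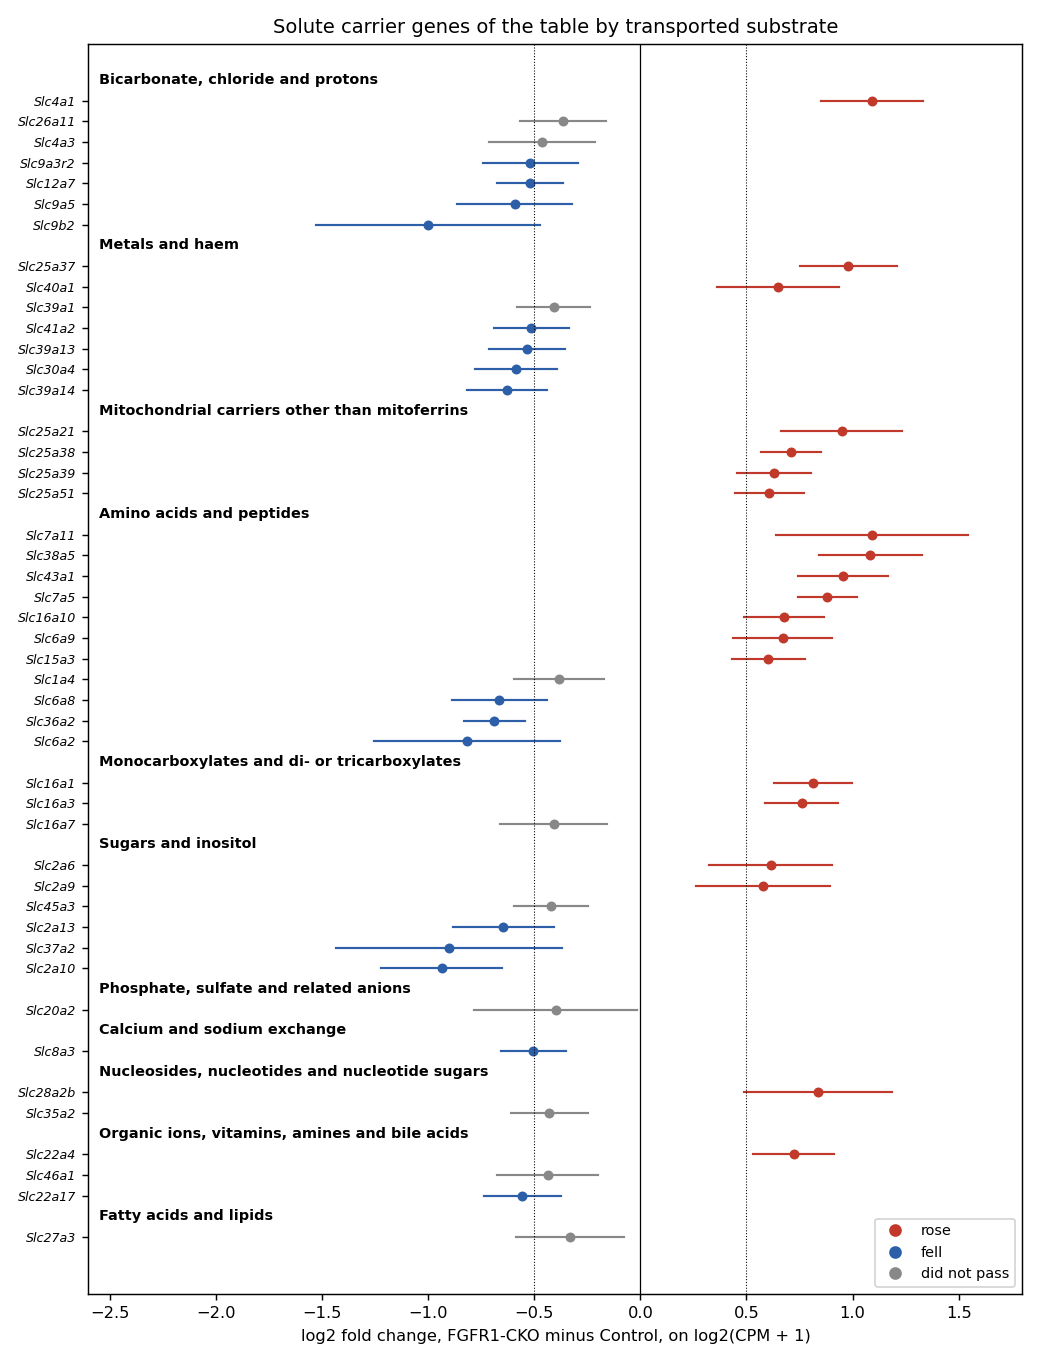
Log2 fold change of 46 of the 47 solute carrier genes (FGFR1-CKO minus Control, on log2(CPM + 1)), grouped by transported substrate. Points are limma estimates and bars 95% confidence intervals over 4 against 4 libraries, dotted lines mark 0.5 and -0.5, and colours show the 20 that rose, the 16 drawn that fell and the 10 that did not pass. All 4 mitochondrial carriers lie to the right of 0, and 6 of the 7 genes classed with bicarbonate, chloride and protons lie to the left. Of all 1994 listed genes 729 were higher and 1265 lower.

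By substrate, amino acid and peptide carriers rose in 7 of 11 cases and fell in 3, beside 36.6% and 38.4% of all listed genes. The mitochondrial carriers other than mitoferrins rose in 4 of 4 cases, and 2 of 3 monocarboxylate carriers rose. Of 7 genes classed with bicarbonate, chloride and protons 4 fell, 1 of them the scaffold gene Slc9a3r2, and 1 rose, metal carriers fell in 4 of 7 with 2 that rose, and sugar and inositol carriers fell in 3 of 6 with 2 that rose. The remaining classes held 1 to 4 listed genes each. Classes this small were not tested against the shares over all listed genes. Without the 2 libraries that stood apart in earlier results (Control replicate 4 and FGFR1-CKO replicate 3) 20 carriers rose and 16 fell, against 36.0% and 33.6% of all genes. Counts by class then stayed as they were for amino acid, mitochondrial, monocarboxylate and sugar carriers, the decreases numbered 3 of 7 for bicarbonate and for metal carriers, and the phosphate carrier Slc20a2 passed as a decrease.

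**Figure D2:**
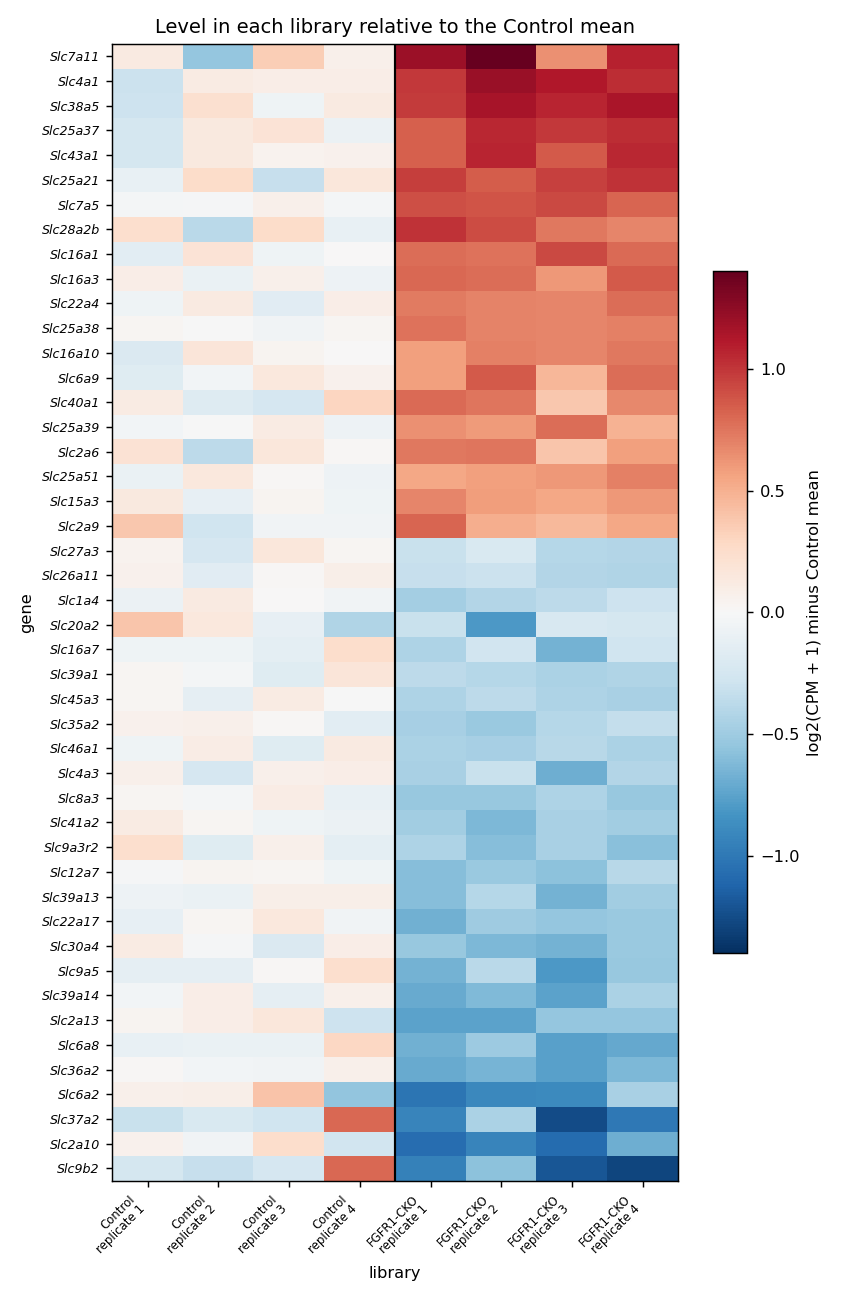
Level of the same 46 solute carrier genes in each library as log2(CPM + 1) minus the mean of the 4 Control libraries, ordered by log2 fold change. Red is higher and blue lower than the Control mean. Within Control the strongest departures are the 2 red cells of replicate 4 at Slc37a2 and Slc9b2.

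Slc4a1 (mm10 chromosome 11, 102348824 to 102366203) encodes band 3, the chloride and bicarbonate exchanger that anchors the red cell membrane to its skeleton. It measured 655, 879, 866 and 864 CPM in Control replicates 1 to 4 and 1612, 1875, 1769 and 1657 CPM in FGFR1-CKO replicates 1 to 4. Every FGFR1-CKO library lay far above every Control library, and Control replicate 1 was the lowest of all 8. This was a log2 fold change of 1.09 (standard error 0.11, limma adjusted p = 9.75e-06). Among its partners in the membrane skeleton Ank1, which encodes an ankyrin, rose by 0.99 and Epb42, which encodes a band 3 binding protein, by 1.11.

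Slc25a37 encodes mitoferrin 1, which brings iron into the mitochondria of red cell precursors. Its level was 240, 315, 328 and 269 CPM in Control and 512, 594, 568 and 587 CPM in FGFR1-CKO, a rise of 0.98 on the log2 scale (standard error 0.10, limma adjusted p = 1.14e-05). Abcb10, an ABC transporter of the inner mitochondrial membrane that binds mitoferrin 1, rose by 0.87. Slc25a38, the mitochondrial glycine carrier that feeds the first step of haem synthesis, varied little within groups, with 29.8, 29.0, 28.0 and 29.7 CPM in Control and 50.1, 47.5, 47.3 and 48.3 CPM in FGFR1-CKO. It rose by 0.71 on the log2 scale (standard error 0.065, limma adjusted p = 8.12e-06). Slc6a9, the glycine transporter of the cell surface, rose by 0.67, but 27.8% of its exonic bases overlap Ccdc24 on the opposite strand and use of strand in the counting is not given, so its own count is uncertain.

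Slc40a1 encodes ferroportin, the iron exporter of macrophages, red cell precursors and other cells. It measured 127, 104, 99.6 and 145 CPM in Control and 205, 198, 153 and 188 CPM in FGFR1-CKO, so that the highest Control library came close to the lowest FGFR1-CKO library without overlap. It rose by 0.65 on the log2 scale (standard error 0.13, limma adjusted p = 6.1e-04). Slc25a21, a mitochondrial carrier of oxodicarboxylates, went from 5.74, 7.66, 4.79 and 7.06 CPM in Control to 13.2, 12.0, 13.1 and 13.5 CPM in FGFR1-CKO (0.95, standard error 0.13, limma adjusted p = 4.81e-05). The other mitochondrial carriers that rose were Slc25a39, which imports glutathione (0.63), and Slc25a51, which imports NAD (0.61). After size-factor rescaling the log2 fold change of Slc25a51 was 0.498, just under the threshold.

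Levels of these genes were set against the erythroid score of the same library. Slc4a1 minus the erythroid score, both on log2(CPM + 1), was 2.35 to 2.49 in Control and 2.35 to 2.47 in FGFR1-CKO. The 2 ranges lay almost on top of each other. Slc38a5 behaved alike, with -3.25 to -2.98 in Control and -3.19 to -3.05 in FGFR1-CKO. The ranges of the cystine and glutamate exchanger Slc7a11 overlapped too but were wide, -5.13 to -4.05 in Control and -4.93 to -4.12 in FGFR1-CKO. Within Control it did not follow the score: replicate 2 had the highest score, 7.42, and the lowest Slc7a11, 3.88 CPM. Slc25a38 minus the score was lower in FGFR1-CKO, -2.81 to -2.58 against -2.51 to -2.06 in Control, without overlap. Of the 20 carriers that rose, 12 overlapped between groups on this measure and 18 when the neutrophil score was subtracted instead. The group difference on this measure is the log2 fold change of the gene minus the shift of the score. That shift was 1.09 for the erythroid and 0.81 for the neutrophil score. A carrier that rose by about as much overlaps by construction. The share over all listed genes was not computed, so these counts cannot be read as particular to carriers. On neither measure did any of the 27 lower carriers overlap. That follows from subtracting scores of markers that rose from genes listed as lower, and is no result about these carriers.

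**Figure D3:**
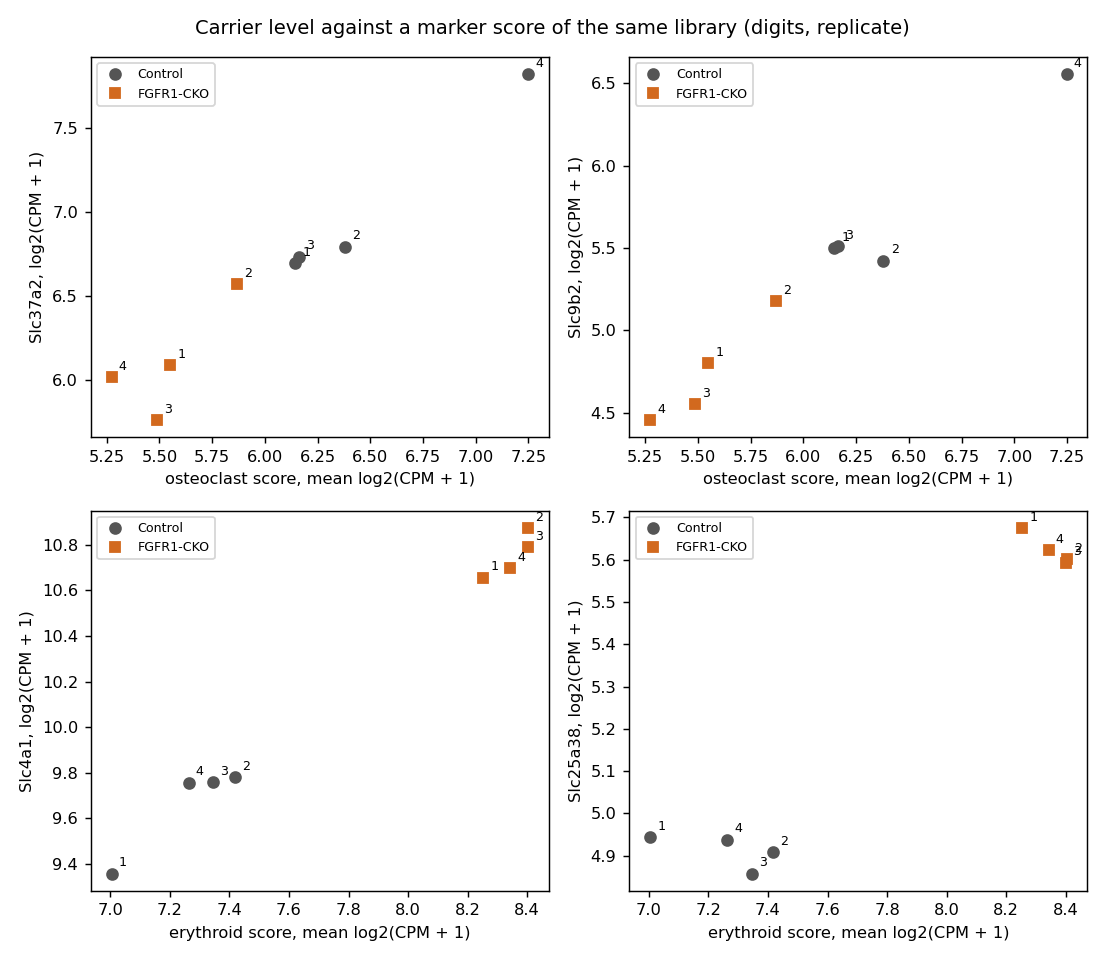
Level of 4 solute carriers, as log2(CPM + 1), against a marker score of the same library, the mean log2(CPM + 1) of listed markers, for Slc37a2 and Slc9b2 (osteoclast) and Slc4a1 and Slc25a38 (erythroid). Circles are Control and squares FGFR1-CKO libraries, and digits give the replicate. Control replicate 4 has the highest osteoclast score, 7.25, and the highest Slc37a2 and Slc9b2, and Slc25a38 differs between groups but hardly within them.

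Amino acid carriers that rose included those of large neutral amino acids, glutamine and cystine. Slc7a11, the cystine and glutamate exchanger that supplies cysteine for glutathione, had a log2 fold change of 1.09 (standard error 0.21, limma adjusted p = 4.04e-04). It measured 6.73, 3.88, 8.01 and 6.48 CPM in Control and 15.2, 18.5, 10.1 and 13.95 CPM in FGFR1-CKO. The groups did not overlap, but both spread widely, and 43 to 183 reads lay behind each value. Its estimate ran from 0.78 to 1.27 over the alternatives.

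Genes of amino acid supply are known to be switched on in amino acid shortage by ATF4, which binds an element called CARE. The promoter of Slc7a11 is shown because it held this element in both orientations, and that of Slc1a4 because it was the only other carrier promoter with it and its gene was lower. Both are RefSeq promoters of build GRCm38.p6, on the minus strand, 300 bases each, 250 before the start of the gene and 50 after, at chr3:50443564-50443863 and chr11:20332664-20332963. Capitals mark matches to TGATGNAA on either strand.
Slc7a11: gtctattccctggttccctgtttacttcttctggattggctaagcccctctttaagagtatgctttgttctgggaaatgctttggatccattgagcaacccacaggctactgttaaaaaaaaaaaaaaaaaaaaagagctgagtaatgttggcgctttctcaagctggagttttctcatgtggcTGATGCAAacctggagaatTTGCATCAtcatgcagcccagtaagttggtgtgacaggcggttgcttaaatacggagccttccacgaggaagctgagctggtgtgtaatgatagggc
Slc1a4: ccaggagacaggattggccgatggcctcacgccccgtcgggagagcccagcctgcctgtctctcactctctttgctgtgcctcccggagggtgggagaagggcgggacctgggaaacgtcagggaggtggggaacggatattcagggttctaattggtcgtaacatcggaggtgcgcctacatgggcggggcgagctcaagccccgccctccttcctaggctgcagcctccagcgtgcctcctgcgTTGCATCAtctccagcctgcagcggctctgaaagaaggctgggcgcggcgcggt
In Slc7a11 the matches begin 66 and 47 bases before the start, on the plus and the minus strand of the promoter, and in Slc1a4 the match begins 4 bases before it, on the minus strand. Promoters were found for 33 of the 47 carriers. The element stood in a promoter of 1 of 14 higher carriers, of 1 of 19 lower carriers and in 3.97% of 32851 promoters of all genes. For this and the motifs below, a carrier counts once if any of its promoters matched. The share of all genes is per promoter, so the units differ. The GATA motif AGATAA, read by the erythroid factor GATA1, stood in 0 of 14, 2 of 19 (Slc22a17 and Slc9a3r2) and 11.2% of all. The RUNX motif ACCACA stood in 3 of 14, 1 of 19 and 16.8%, and the antioxidant element TGACNNNGC in 4 of 14, 5 of 19 and 12.4%. Both strands were searched. A match describes the letters of this window and is no evidence of binding.

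Slc7a5, which exchanges large neutral amino acids such as leucine, was among the most even of the carriers within each group. It measured 45.1, 45.2, 48.2 and 44.8 CPM in Control and 86.8, 85.3, 87.6 and 81.4 CPM in FGFR1-CKO. It rose by 0.88 on the log2 scale (standard error 0.064, limma adjusted p = 5.45e-06). Its partner chain Slc3a2, which it shares with Slc7a11, was not listed. Slc38a5, a glutamine and glycine transporter, went from 13.6, 19.7, 16.0 and 18.4 CPM in Control to 34.02, 38.4, 36.1 and 38.1 CPM in FGFR1-CKO, a rise of 1.08 on the log2 scale (standard error 0.11, limma adjusted p = 9.77e-06). Slc43a1, a facilitative carrier of branched-chain amino acids, rose by 0.95 and Slc16a10, a carrier of aromatic amino acids, by 0.68. Slc15a3, a histidine and peptide transporter of lysosomes, rose by 0.60, but 28.1% of its exonic bases overlap Tmem132a on the opposite strand. It had a log2 fold change of 0.496 after size-factor rescaling.

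Both lactate carriers best known for exchange between cells, Slc16a1 and Slc16a3, rose. Slc16a1, which carries lactate and pyruvate with a proton in either direction, measured 53.8, 68.4, 57.1 and 60.0 CPM in Control and 103, 101, 114 and 104 CPM in FGFR1-CKO (log2 fold change 0.81, standard error 0.084, limma adjusted p = 1.01e-05). Slc16a3, known as the lactate exporter of glycolytic cells, measured 79.3, 69.3, 77.8 and 70.5 CPM in Control and 130, 128, 114 and 135 CPM in FGFR1-CKO (log2 fold change 0.76, standard error 0.078, limma adjusted p = 1.01e-05). In both genes every FGFR1-CKO library exceeded every Control library. Their relative Slc16a7 was lower in FGFR1-CKO and did not pass (-0.41). It had a log2 fold change of -0.51 and passed after size-factor rescaling. Bsg and Emb, the chaperones of these carriers, were not listed.

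**Figure D4:**
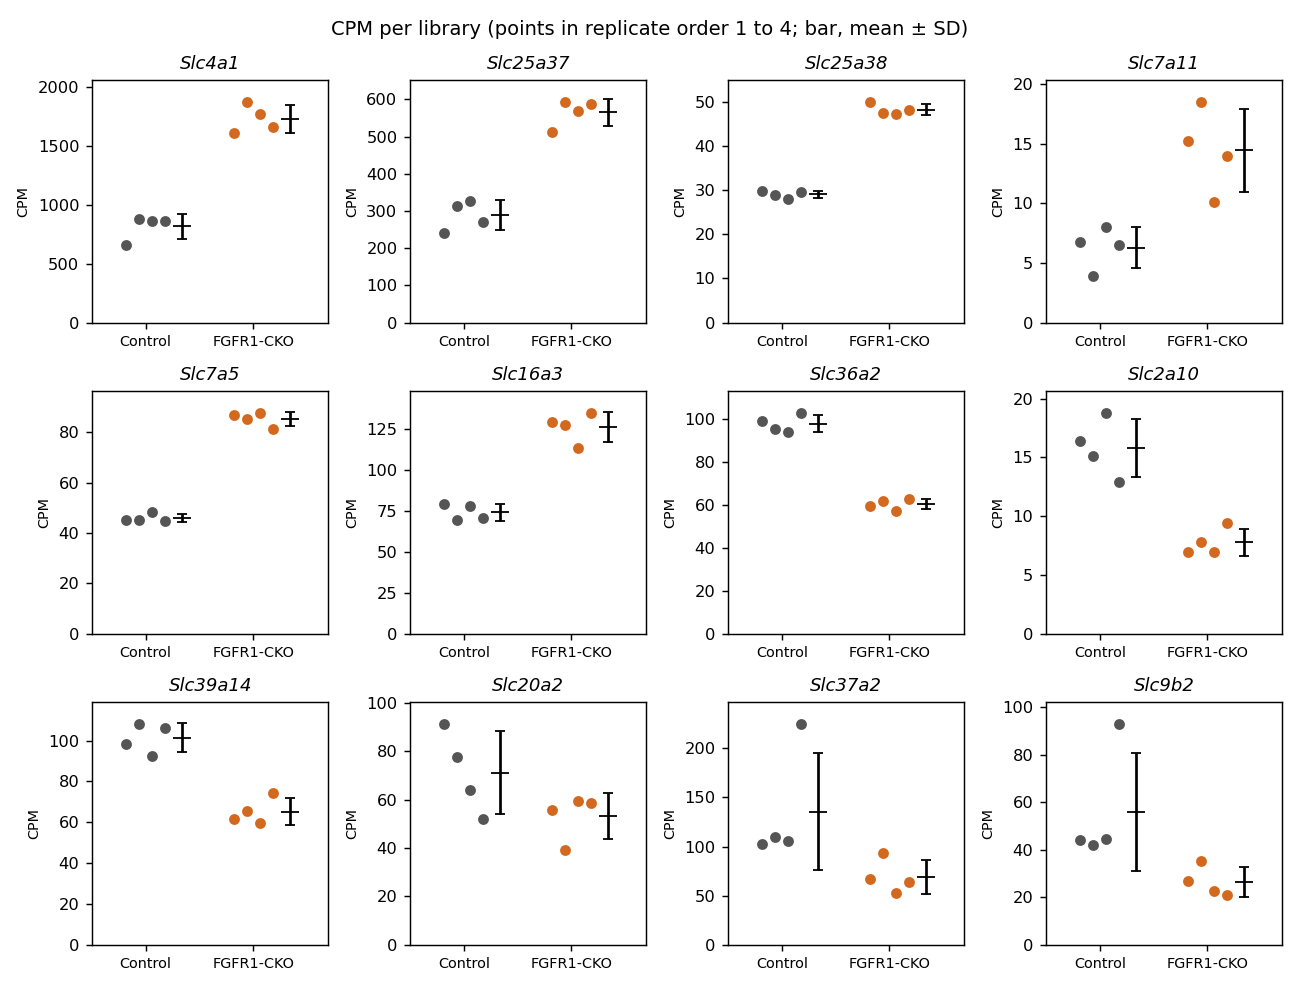
CPM of 12 solute carriers in each library, with Control in grey and FGFR1-CKO in orange. Each point is 1 library, and the bar beside the points gives the mean and SD of 4. The groups overlap in Slc20a2 alone of these 12, and Control replicate 4 stands far above the other Controls in Slc37a2 and Slc9b2.

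Among the 11 amino acid carriers 3 fell, and 2 of these, Slc6a8 and Slc6a2, carry creatine and noradrenaline. Slc36a2, which takes up proline and glycine with a proton, measured 99.1, 95.6, 94.3 and 103 CPM in Control and 59.6, 61.8, 57.5 and 62.8 CPM in FGFR1-CKO. The values were tight in both groups and far apart, and the log2 fold change was -0.69 (standard error 0.065, limma adjusted p = 8.36e-06). Slc6a8, the creatine transporter, fell by 0.66 on the log2 scale, from 65.4, 66.0, 65.7 and 86.5 CPM to 43.7, 49.3, 41.2 and 42.4 CPM. Control replicate 4 was the high one, and without it the log2 fold change was -0.57. Slc6a2, the noradrenaline transporter, fell (-0.82, standard error 0.20, limma adjusted p = 2.15e-03) on 28 to 102 reads per library. It measured 7.32, 7.39, 9.40 and 4.39 CPM in Control and 2.90, 3.24, 3.27 and 4.75 CPM in FGFR1-CKO. The groups overlapped, since Control replicate 4 lay below FGFR1-CKO replicate 4, and with a pseudocount of 5 the fold change missed the threshold (-0.49).

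Slc2a10 encodes a facilitative sugar carrier of inner membranes, loss of which in humans causes a disorder of arteries and connective tissue. It measured 16.4, 15.1, 18.8 and 12.9 CPM in Control and 6.95, 7.79, 6.92 and 9.41 CPM in FGFR1-CKO. No library overlapped (log2 fold change -0.94, standard error 0.13, limma adjusted p = 5.55e-05). Slc2a13, which takes up myo-inositol with a proton, fell by 0.64 on the log2 scale. In the other direction Slc2a6, of the glucose transporter family, rose by 0.61 (standard error 0.13, limma adjusted p = 9.77e-04), from 20.6, 13.5, 19.9 and 17.9 CPM in Control to 30.4, 30.5, 23.6 and 27.0 CPM in FGFR1-CKO. The urate carrier Slc2a9 rose by 0.58 (standard error 0.14, limma adjusted p = 2.33e-03), from 10.1, 6.04, 7.28 and 7.25 CPM to 14.001, 11.1, 10.7 and 11.5 CPM. Control replicate 2 was the lowest library in each, and without it both stayed higher but missed the fold threshold, at 0.49 and 0.49. Slc2a9 also missed the threshold after size-factor rescaling (0.48) and with a pseudocount of 5 (0.41).

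Slc9b2 and Slc37a2 fell in libraries with a lower osteoclast score. Slc9b2, a sodium and proton exchanger known from osteoclasts, measured 44.3, 41.9, 44.7 and 93.0 CPM in Control and 26.9, 35.2, 22.5 and 20.98 CPM in FGFR1-CKO. Slc37a2, a sugar phosphate exchanger of inner membranes that osteoclasts and macrophages express, measured 103, 110, 105 and 225 CPM in Control and 67.0, 93.9, 53.2 and 63.6 CPM in FGFR1-CKO. In both genes Control replicate 4 was far above every other library, and FGFR1-CKO replicate 2 came closest to the Controls. The log2 fold changes were -1.001 (standard error 0.24, limma adjusted p = 1.96e-03) for Slc9b2 and -0.90 (standard error 0.24, limma adjusted p = 3.9e-03) for Slc37a2. Without Control replicate 4 they were -0.73 and -0.63, and without both it and FGFR1-CKO replicate 3 they were -0.67 and -0.52, all past the threshold.

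The osteoclast score of Control replicate 4 was 7.25, against 6.14 to 6.38 in the other Controls. Slc37a2 minus this score was 0.41 to 0.57 in Control and 0.27 to 0.74 in FGFR1-CKO. Slc9b2 minus it was -0.96 to -0.64 in Control and -0.93 to -0.69 in FGFR1-CKO. The groups overlapped in both cases. On this measure 26 of the 27 lower carriers overlapped, with a Control range widened by replicate 4, against 16 of 27 with the osteoblast score and 15 of 27 with the osteocyte score subtracted. These scores shifted by -0.94 (osteoclast), -0.83 (osteoblast) and -0.76 (osteocyte), and a carrier that fell by about as much overlaps by construction. Here too the share over all listed genes was not computed. Atp6v0d2, the proton pump subunit of osteoclasts and a member of that score, was 1 of 2 ATP-driven pumps listed and fell by 1.005 on the log2 scale.

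Other acid and ion exchangers fell or were lower. Slc9a5, a sodium and proton exchanger, measured 10.4, 10.46, 11.6 and 13.6 CPM in Control and 6.84, 8.60, 6.15 and 7.65 CPM in FGFR1-CKO, without overlap, and fell (-0.59, standard error 0.12, limma adjusted p = 7.93e-04). Slc12a7, a potassium and chloride cotransporter, fell as well (-0.52). Slc4a3, an anion exchanger related to Slc4a1 (-0.46), and Slc26a11, a sulfate and anion carrier (-0.36), were lower and did not pass. Slc4a3 passed with size factors (-0.57), and it also passed when replicate 2 of Control (-0.54) or of FGFR1-CKO (-0.51) was left out. Slc9a3r2 (-0.52) also fell, though its symbol names a scaffold protein that binds such exchangers and not a carrier. Several of these lie so close to the threshold that 1 library decides the call. Slc12a7 was -0.49 without FGFR1-CKO replicate 1 and -0.4996 without FGFR1-CKO replicate 3. Slc9a3r2 was -0.44 without Control replicate 1.

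The zinc carriers listed, all named here, were lower, as were 1265 of all 1994 listed genes. They are few and were not tested against that share. Slc39a14, which brings zinc, manganese and iron into cells, measured 98.5, 108, 92.6 and 106 CPM in Control and 61.8, 65.6, 59.6 and 74.1 CPM in FGFR1-CKO, without overlap. It fell by 0.63 on the log2 scale (standard error 0.085, limma adjusted p = 4.68e-05). Slc30a4, which moves zinc out of the cytosol, went from 34.6, 31.5, 27.5 and 33.9 CPM in Control to 21.7, 20.1, 19.8 and 21.9 CPM in FGFR1-CKO and fell by 0.58 on the log2 scale (standard error 0.088, limma adjusted p = 9.28e-05). Here too no library overlapped. Slc39a13, a zinc carrier of inner membranes whose loss in humans causes a connective tissue disorder, fell by 0.54, a value of -0.49 without FGFR1-CKO replicate 3. Slc39a1, a zinc importer of the cell surface, was lower and did not pass (-0.41), and it passed after size-factor rescaling (-0.52). Slc41a2, a magnesium carrier, fell by 0.51, and stood at -0.48 without Control replicate 1 and likewise without FGFR1-CKO replicate 2.

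For mineral ions the table held 1 phosphate and 1 calcium carrier. Slc20a2, a sodium and phosphate cotransporter, measured 91.2, 77.5, 64.0 and 51.9 CPM in Control and 55.8, 39.4, 59.5 and 58.4 CPM in FGFR1-CKO. The groups overlapped and the gene did not pass (log2 fold change -0.40, standard error 0.17, limma adjusted p = 0.0427). Its adjusted p ran up to 0.135, without Control replicate 1, and its log2 fold change was -0.54 without Control replicate 4. Slc8a3, which exchanges sodium for calcium, measured 86.7, 83.5, 91.6 and 79.4 CPM in Control and 58.6, 58.9, 63.0 and 58.8 CPM in FGFR1-CKO. No library overlapped, but the log2 fold change of -0.50 (standard error 0.069, limma adjusted p = 4.88e-05) lay at the threshold. It was between -0.47 and -0.496, and did not pass, without Control replicate 1 or 3 and without FGFR1-CKO replicate 1, 2 or 4. Slc8a3 minus the osteocyte score was higher in FGFR1-CKO, -0.56 to -0.35 against -0.86 to -0.63 in Control, without overlap. The score itself shifted by -0.76, more than Slc8a3, so this difference follows from the 2 changes and is no separate result. The groups were also apart with the osteoblast score subtracted, but they overlapped with the osteoclast score. Of 10 genes of phosphate handling and mineral formation looked up, 7 were listed and 6 fell, against 38.4% of all listed genes, and 5 fell without Control replicate 4 and FGFR1-CKO replicate 3. Among them were the phosphatase gene Alpl (-1.01) and Phex (-0.62), which regulates phosphate. Alpl is also part of the osteoblast score, and Phex, Dmp1 and Mepe of the osteocyte score, so list and scores are not separate results. The osteoblast score fell from 9.65 to 9.81 in Control to 8.83 to 9.08 in FGFR1-CKO in these libraries.

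In the small classes, Slc28a2b, a nucleoside carrier with a close paralog that could share its reads, measured 4.25, 2.43, 4.33 and 3.15 CPM in Control and 7.99, 7.39, 6.44 and 6.20 CPM in FGFR1-CKO. It rose by 0.83 (standard error 0.16, limma adjusted p = 4.33e-04), without overlap, on 27 to 77 reads per library, and missed the threshold with a pseudocount of 5 (0.49). Slc22a4, a carrier of ergothioneine and organic cations, rose from 12.96, 14.9, 12.1 and 14.5 CPM in Control to 23.1, 22.6, 22.3 and 24.1 CPM in FGFR1-CKO (0.72, standard error 0.086, limma adjusted p = 2.13e-05). Slc22a17, described as a receptor for the iron-binding protein lipocalin 2, measured 27.1, 30.1, 32.7 and 28.4 CPM in Control and 18.1, 20.6, 20.0 and 20.4 CPM in FGFR1-CKO and fell (-0.56, standard error 0.083, limma adjusted p = 8.86e-05). The groups of both genes were narrow and apart. The folate transporter Slc46a1 (-0.44), the carrier of UDP-galactose into the Golgi Slc35a2 (-0.43), Slc45a3 (-0.42), the neutral amino acid exchanger Slc1a4 (-0.38) and Slc27a3, of the fatty acid transport family (-0.33), were lower and did not pass. Of these, Slc46a1, Slc35a2 and Slc45a3 passed after size-factor rescaling, each at -0.53. Slc45a3 shares 13.5% of its exonic bases with Gm29103 on the same strand, so its own count is uncertain.

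Transport genes outside the Slc symbols went both ways, beside 36.6% of all listed genes that rose and 38.4% that fell. Of carriers of the same superfamily under another symbol 6 were listed, 3 rose and 2 fell. Rhag, the ammonium channel of the red cell membrane, rose by 1.01, and Slco2a1, a prostaglandin carrier, fell by 0.76. Of ABC transporters 7 were listed, 3 rose and 2 fell. Without Control replicate 4 and FGFR1-CKO replicate 3 none fell, against 33.6% of all listed genes. Of 20 iron, acid-base and partner genes 10 were listed, 8 rose and 1 fell, against 36.6% and 38.4% of all listed genes, and several are erythroid markers too. The carbonic anhydrases of this list parted, with Car2 higher (1.08) and Car12 lower (-1.20).

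The authors' workbook also lists genes that changed in Ocy454 cells, an osteocyte-like mouse cell line. Among all genes listed for bone, 9.18% were on it, and of the 47 solute carriers 1 was, Slc40a1, which is 2.13%. The Ocy454 list held 5 Slc symbols in all, and Slc2a1, Slc4a4, Slc4a7 and Slc27a1 were not listed in the bone table.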

How the data were processed

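Bulk RNA-seq of flushed femoral cortical bone was compared between 4 Control and 4 FGFR1-CKO libraries, grouped by genotype. Libraries are numbered in accession order, which pairs none of them. No label ties a library to a mouse or a batch, so the tests read only the spread among these libraries, which may be technical.

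Build mm10 and the tools STAR 2.7.9a, cutadapt, RSEM, Subread 2.0.1 with featureCounts, DESeq2 and edgeR appear in the submitters' processing notes, with no roles. The authors deposited CPM per library, a mean normalized count (a signal over all libraries), log2 fold changes with standard errors, and p-values with adjusted p-values, per the file headers. Marks for genes on other lists and sheets of symbols, an other kind of value, were deposited too. For the annotation and the strand setting of the counting, the entry is: not given in the sources used here.

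A total per library turned 100% of CPM values into whole reads (within 0.001 reads). The totals were found from the values themselves, in a table with no gene under a mean of 5.00 CPM, so totals and reads are estimates. They served for depth and, with the authors' mean, for size factors of 0.98 to 1.02. The test was limma 3.58.1 (trend, R 4.3.3) on log2(CPM + 1), genotype alone, over all 1994 listed genes with Benjamini-Hochberg adjustment, checked on simulated counts. These genes were listed for differing in the same libraries, and 99.4% passed at any fold change. The adjusted p-values are therefore no false discovery rate over all measured genes. The simulation changed a minority of genes without such a selection, so it does not cover this. Fold changes on this scale understate low genes. Intervals are at 95%.

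Members and lists were chosen with earlier results of these data known. Values per library are given for carriers named by rule: per substrate class the 2 highest and the 2 lowest past the threshold with a mean normalized count of at least 20, and 10 of 21 textbook carriers that were listed. This named 26, of which 1 is not reported here. The other carriers are given by fold change, and Slc6a8 by library after its values were seen. Classes follow family numbers. Positions are from GENCODE M21, which has 46 of the 47 symbols. Alternatives were size-factor rescaling, pseudocounts of 0.1 and 5, a filter at a mean of 50, no trend, any fold change, and libraries left out.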

Additional observations from a re-analysis of the deposited data

Results flagged for a closer look

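Among 112 groups of 4 libraries (the 47 solute carriers and 9 marker scores in each genotype), 8 had 1 library whose gap to the nearest other, as a share of the whole range, exceeded Dixon's critical value at 95%. Chance gives about 1 in 20 groups, and 7.14% is near that. Control replicate 4 was high in 3 genes, Slc37a2 (225 CPM, others 103 to 110), Slc9b2 (93.0 CPM, others 41.9 to 44.7) and Slc6a8 (86.5 CPM, others 65.4 to 66.0). Its osteoclast score was 7.25, against 6.14 to 6.38 in the other Controls. Control replicate 1 was low in Slc4a1 (655 CPM, others 864 to 879) and had the lowest erythroid score of the Controls, 7.00. Control replicate 2 was low in Slc4a3 (11.7 CPM, others 14.7 to 15.1), and Control replicate 3 was high in Slc7a5 (48.2 CPM, others 44.8 to 45.2). FGFR1-CKO replicate 3 was high in Slc8a3 (63.0 CPM, others 58.6 to 58.9) and had an osteoblast score of 9.08, against 8.83 to 8.88 in the others.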

How the results depend on the processing

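With a pseudocount of 5, 18 carriers rose and 8 fell (over all genes 29.9% and 26.4%), and at any fold change 27 fell. A larger pseudocount shrinks the fold change of low genes, so it lowers the count by construction. Leaving out each library in turn gave 18 to 20 that rose, 14 to 18 that fell and an Fgfr1 log2 fold change of -0.97 to -0.83. Over all listed genes 35.9% to 36.4% rose and 35.2% to 42.2% fell in these settings. In the settings that left out libraries the call of 36 of the 47 carriers held, a count without its share over all listed genes, which was not computed. With a pseudocount of 5 the lost calls included Slc22a17 (-0.48), Slc9a5 (-0.42), Slc12a7 (-0.49), Slc41a2 (-0.43), Slc39a13 (-0.499), Slc9a3r2 (-0.45) and Slc8a3 (-0.48). With libraries left out, those whose call changed at least once included Slc2a6, Slc2a9, Slc4a3, Slc8a3, Slc9a3r2, Slc9a5, Slc12a7, Slc20a2, Slc39a13 and Slc41a2, whose main log2 fold changes were 0.40 to 0.61 in size. Slc9a5 was -0.45 without both Control replicate 4 and FGFR1-CKO replicate 3. The filter at a mean normalized count of 50 removed no gene. The planned count models were not run, because the deposited values are CPM of genes selected for differing. No paired analysis was possible because the replicate numbers are accession order.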
